A study of Mus musculus with 38 samples.

Results

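The genes described here encode the proteins of the mitochondrial ribosome, taken as every row of the deposited RNA table whose symbol starts with Mrpl or Mrps followed by a digit. The rule found 77 genes of 11184 listed, and all 77 were among the 9942 genes tested. By background knowledge 50 of them encode large-subunit proteins, counting Mrps18a and Mrps30 despite their names, and 26 encode small-subunit proteins. The remaining gene, Mrps36, encodes a protein now known as a component of the 2-oxoglutarate dehydrogenase complex, and it was kept because the rule takes it.

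The mitochondrial ribosome translates the few messages of the mitochondrial genome, all of which encode subunits of the respiratory chain and of ATP synthase. Its RNAs are made in the organelle, while its proteins are encoded in the nucleus, made in the cytosol and imported. Classical activation of macrophages is known for a move towards glycolysis and away from mitochondrial respiration.

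The cells were bone marrow-derived macrophages of C57BL/6 mice, unstimulated (0h) or exposed to 5 ng/ml LPS and 12 ng/ml IFNg, which induce the inflammatory M1 state, for 4, 8, 16 or 24 h. The other 3 groups (LA 8h, LA 16h, LA 24h) also received lactic acid, 4 h later than LPS and IFNg, at a dose that the labels do not give. The hours in these names are read here as time after LPS and IFNg. There were 32 RNA libraries in 8 groups of 4, and 6 ChIP libraries with 1 per mark and state, of unstimulated (M0) cells and of cells after 24 h of M1 polarization. Whether the 4 replicates of a group were separate mice or cultures is not in the labels, and p-values therefore measure only the spread between these libraries, which may be technical.

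Levels are RPKM, reads per kilobase of gene scaled to an effective library size set by the authors. A difference is given as a log2 fold change of RPKM + 1 with its standard error (SE). A gene was called higher or lower at a Benjamini-Hochberg adjusted p under 0.05 in limma, over all 9942 genes tested. The deposited table lists almost only genes that passed the authors' own test for change, so the shares of genes called that stand beside the counts below are shares of a preselected list. Reads in listed genes ran from 60633872 to 103927625 per library, and a single member had between 170 and 12031 reads in a library. All 8 macrophage markers looked for were present, with a summed level of 17912 to 20398 RPKM in the 0h libraries, and none of the 7 lymphocyte markers was listed. Neutrophil markers (4 of 9 listed) summed to 10.1 to 15.6 RPKM at 0h and 54.8 to 83.2 RPKM at 4h, and their part in the results was not tested. In bulk RNA, fewer cells of a type and less RNA per cell cannot be told apart.

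A pair of libraries had the highest member levels of their groups, though the search for distant libraries described at the end flagged neither for its median. The median member level, as log2(RPKM + 1), was 4.40 in 24h replicate 4 against 3.84 to 4.06 in the other 24h libraries, and 4.50 in LA 24h replicate 1 against 4.06 to 4.19 in the other LA 24h libraries. Both lie in the groups of the 24 h comparison with lactic acid, whose counts are given with and without them.

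The promoters of 68 members were present in the RefSeq table used here, each as 300 bases that run across the annotated start (build GRCm38.p6). Exact matches to the letters of 3 factors known to act on nuclear genes of mitochondrial proteins were searched on both strands: CCGGAAG for ETS factors such as GABP, AAGATGGCG for YY1 and the palindromic core of the NRF1 motif. In the promoters printed below no match overlaps another. The ETS letters were in 25 of 68 member promoters (36.8%), in 22.4% of the 7823 tested genes with a promoter and in 9.93% of all 27025 promoters in the table. The YY1 letters were in 8 member promoters (11.8%, against 4.08% and 1.64%), and the NRF1 letters in 3 (4.41%, against 2.57% and 1.07%), those of Mrpl9, Mrpl32 and Mrpl39. Of the 68, 34 held at least 1 of the 3 words (50.0%, against 27.4% of tested genes). A match is a description of the letters and not a binding site.

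The promoters below belong to members whose RNA carries the results that follow, and matches are in capitals, read on the strand of the gene. Mrpl52 (chr14:54426659-54426958, + strand), the member with the largest rise, holds the ETS letters 2 times, both in the reverse direction. Mrpl58 (chr11:115403502-115403801, + strand) holds them 2 times in the forward direction. Its RPKM lay below its 0h values in LA 8h, as did that of Mrpl28, Mrpl33, Mrpl42 and others, and above them in LA 16h and LA 24h. Mrps18a (chr17:46110754-46111053, + strand) holds the ETS and the YY1 letters. Mrpl39 (chr16:84735195-84735494, - strand) holds the NRF1 letters, and Mrpl45 (chr11:97315466-97315765, + strand), the one member called higher under lactic acid at all 3 times, holds none of the 3 words.
Mrpl52: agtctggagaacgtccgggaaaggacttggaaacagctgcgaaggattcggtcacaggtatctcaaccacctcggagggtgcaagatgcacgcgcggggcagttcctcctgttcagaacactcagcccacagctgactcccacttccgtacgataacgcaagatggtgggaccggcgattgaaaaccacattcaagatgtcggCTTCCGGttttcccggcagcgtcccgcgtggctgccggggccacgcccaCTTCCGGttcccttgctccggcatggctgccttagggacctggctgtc
Mrpl58: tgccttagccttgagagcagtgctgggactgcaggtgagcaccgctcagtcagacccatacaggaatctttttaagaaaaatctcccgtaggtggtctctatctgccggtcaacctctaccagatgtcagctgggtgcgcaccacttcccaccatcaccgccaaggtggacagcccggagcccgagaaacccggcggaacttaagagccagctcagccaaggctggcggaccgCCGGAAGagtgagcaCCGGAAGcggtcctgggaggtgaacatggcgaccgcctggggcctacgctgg
Mrps18a: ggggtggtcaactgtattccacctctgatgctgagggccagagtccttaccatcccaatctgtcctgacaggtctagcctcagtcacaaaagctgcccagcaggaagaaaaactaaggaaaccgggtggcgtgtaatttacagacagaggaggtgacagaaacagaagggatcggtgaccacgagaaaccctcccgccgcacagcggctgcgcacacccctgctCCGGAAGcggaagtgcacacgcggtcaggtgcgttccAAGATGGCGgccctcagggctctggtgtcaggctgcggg
Mrpl39: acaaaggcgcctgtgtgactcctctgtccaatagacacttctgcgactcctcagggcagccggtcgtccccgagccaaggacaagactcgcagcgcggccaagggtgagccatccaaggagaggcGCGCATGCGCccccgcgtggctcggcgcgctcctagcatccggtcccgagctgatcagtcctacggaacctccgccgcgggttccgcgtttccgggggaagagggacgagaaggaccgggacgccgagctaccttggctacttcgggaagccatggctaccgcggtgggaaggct
Mrpl45: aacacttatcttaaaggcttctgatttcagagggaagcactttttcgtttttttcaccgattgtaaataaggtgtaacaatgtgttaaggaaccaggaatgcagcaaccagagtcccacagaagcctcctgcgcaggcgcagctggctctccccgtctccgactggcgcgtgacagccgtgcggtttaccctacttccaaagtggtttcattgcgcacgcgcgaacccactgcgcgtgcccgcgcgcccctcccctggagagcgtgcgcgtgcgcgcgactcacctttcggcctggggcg

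At 4h the median log2 fold change was 0.34 for the 25 with the letters and 0.30 for the 43 without, at 24h 0.50 and 0.44, and under lactic acid at 8h -0.52 and -0.38. Members with and without the letters thus moved in the same direction in all 3 comparisons, and no test was made of the medians.

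Before stimulation the members covered a wide range of levels. At 0h the lowest group mean was 1.30 RPKM, for Mrps34, the median over members 11.1 RPKM and the highest 58.2 RPKM, for Mrpl42. The 4 libraries of this group were close to each other, with a median standard deviation over members of 5.37% of the mean. This spread differed between groups, from 3.63% in LA 8h to 10.7% at 16h, 13.2% in LA 24h and 15.5% at 24h. The model takes 1 spread per gene over all 8 groups. The SEs and calls below therefore do not follow the spread of the groups compared, which was wider at 24h. Mrpl52 ranked 48 of 77 by its mean level at 0h and was the highest member at 4h, 8h and 16h.

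After 4 h of LPS and IFNg, 51 members were higher and 10 lower than at 0h, with a median log2 fold change of 0.34. Over all tested genes 42.5% were called higher and 42.7% lower, with a median of -0.00. The comparisons of the 4 times with 0h share the 0h libraries. The direction of these counts depends on the scaling. When each library was instead scaled to its reads in listed genes (the listed-read scaling below), 21 members were higher and 39 lower, at a median of -0.13 among all genes at -0.44. The members stood above the median of all genes by 0.34 with the authors' scaling and by 0.31 with the other. Median ratios as the scaling gave 6 lower, and with the trend of each library with gene length removed 48 were higher and 18 lower, at a median of 0.32. The summed macrophage markers were 13477 to 14540 RPKM at 4h, below the 0h range, and their part in the result was not tested. In 51 members all 4 values at 4h lay above all 4 values at 0h, against 42.6% of tested genes, and 50 of these were called higher.

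Mrpl52, a large-subunit protein with no bacterial counterpart, changed most. Its RPKM was 9.2, 9.44, 8.69 and 8.86 at 0h, 86.2, 86.6, 73.9 and 75.2 at 4h, and 125, 108, 126 and 129 at 8h. Every stimulated library lay far above every unstimulated one, and log2 of the fold change at 4h was 3.02 (SE 0.14, limma adjusted p = 3.9e-19). The gene lies on chromosome 14 at 54426909 to 54429750 (GRCm38.p6, + strand), and Mmp14, a membrane matrix metalloproteinase, lies 1848 bases away on the same strand. Mmp14 had a log2 fold change of 5.36 at 4h and 4.24 at 24h, and whether the neighbours share transcription or reads was not tested.

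The next largest rise was that of Mrpl39, a mitochondria-specific protein of the large subunit. Its RPKM was 11.4, 10.8, 11.0 and 11.1 at 0h and 25.6, 28.6, 27.4 and 26.2 at 4h, a log2 fold change of 1.21 (SE 0.06). The groups did not overlap, and the level then declined to 15.0 to 19.3 RPKM at 24h without reaching that of 0h. Mir155hg, the host transcript of miR-155, lies 3036 bases from Mrpl39 on the opposite strand and had a log2 fold change of 2.06 at 4h and 0.07 at 24h.

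At 4h 35 of 50 large-subunit and 16 of 26 small-subunit members were higher. Mrpl3, a homologue of a bacterial protein near the peptidyl transferase centre, went from 6.54, 6.08, 5.92 and 6.13 RPKM at 0h to 13.2, 15.6, 14.8 and 14.9 RPKM. Mrps28, a small-subunit protein, went from 13.8, 11.6, 10.1 and 11.4 RPKM to 29.2, 28.9, 24.0 and 25.9 RPKM. In both, every 4h value lay above every 0h value, with log2 fold changes of 1.12 (SE 0.07) and 1.14 (SE 0.12). Mrpl54 (1.15, SE 0.11), Mrpl46 (1.05, SE 0.09), Mrps18b (1.05, SE 0.07) and Mrps10 (0.96, SE 0.07) completed the 8 largest rises.

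The 3 proteins of the S18 family rose together but by different amounts. Mrps18b and Mrps18c, which sit in the small subunit, had log2 fold changes of 1.05 and 0.84 (SE 0.11) at 4h, and Mrps18a, which sits in the large subunit, 0.59 (SE 0.08). In Mrps18a the listed-read scaling left 0.10 (limma adjusted p = 0.10). Mrpl12, a stalk protein that also binds the mitochondrial RNA polymerase, Mrpl58, a peptidyl-tRNA hydrolase that frees stalled ribosomes, and Mrps30 were higher by 0.24 (SE 0.10), 0.24 (SE 0.11) and 0.40 (SE 0.08), and all 3 had negative values with that scaling. The calls of Mrpl12 and Mrpl58 were lost when 1 of several libraries was left out, such as 0h replicate 3 (limma adjusted p = 0.091 and 0.092). Mrps36 was not called at 4h (-0.07, SE 0.10).

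The falls at 4h were smaller and mostly in the large subunit. Mrpl34, the homologue of bacterial L34, went from 35.6, 33.2, 30.9 and 38.5 RPKM to 25.9, 23.2, 21.1 and 21.0 RPKM (log2 fold change -0.58, SE 0.11). Mrpl41, a mitochondria-specific protein, went from 16.8, 17.0, 15.3 and 16.3 RPKM to 11.0, 11.5, 12.3 and 11.2 RPKM (-0.47, SE 0.10). In neither did the groups overlap. The others among the 8 largest falls were Mrpl49 (-0.49, SE 0.08), Mrpl43 (-0.45, SE 0.09), Mrpl51 (-0.29, SE 0.09), Mrps35 (-0.25, SE 0.06), Mrps6 (-0.22, SE 0.09) and Mrpl2 (-0.21, SE 0.09). Without 0h replicate 1 the calls of Mrps6 and Mrpl2 were lost (limma adjusted p = 0.11 and 0.062), and the number of members lower dropped from 10 to 6, as it did without 4h replicate 1.

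**Figure D1:**
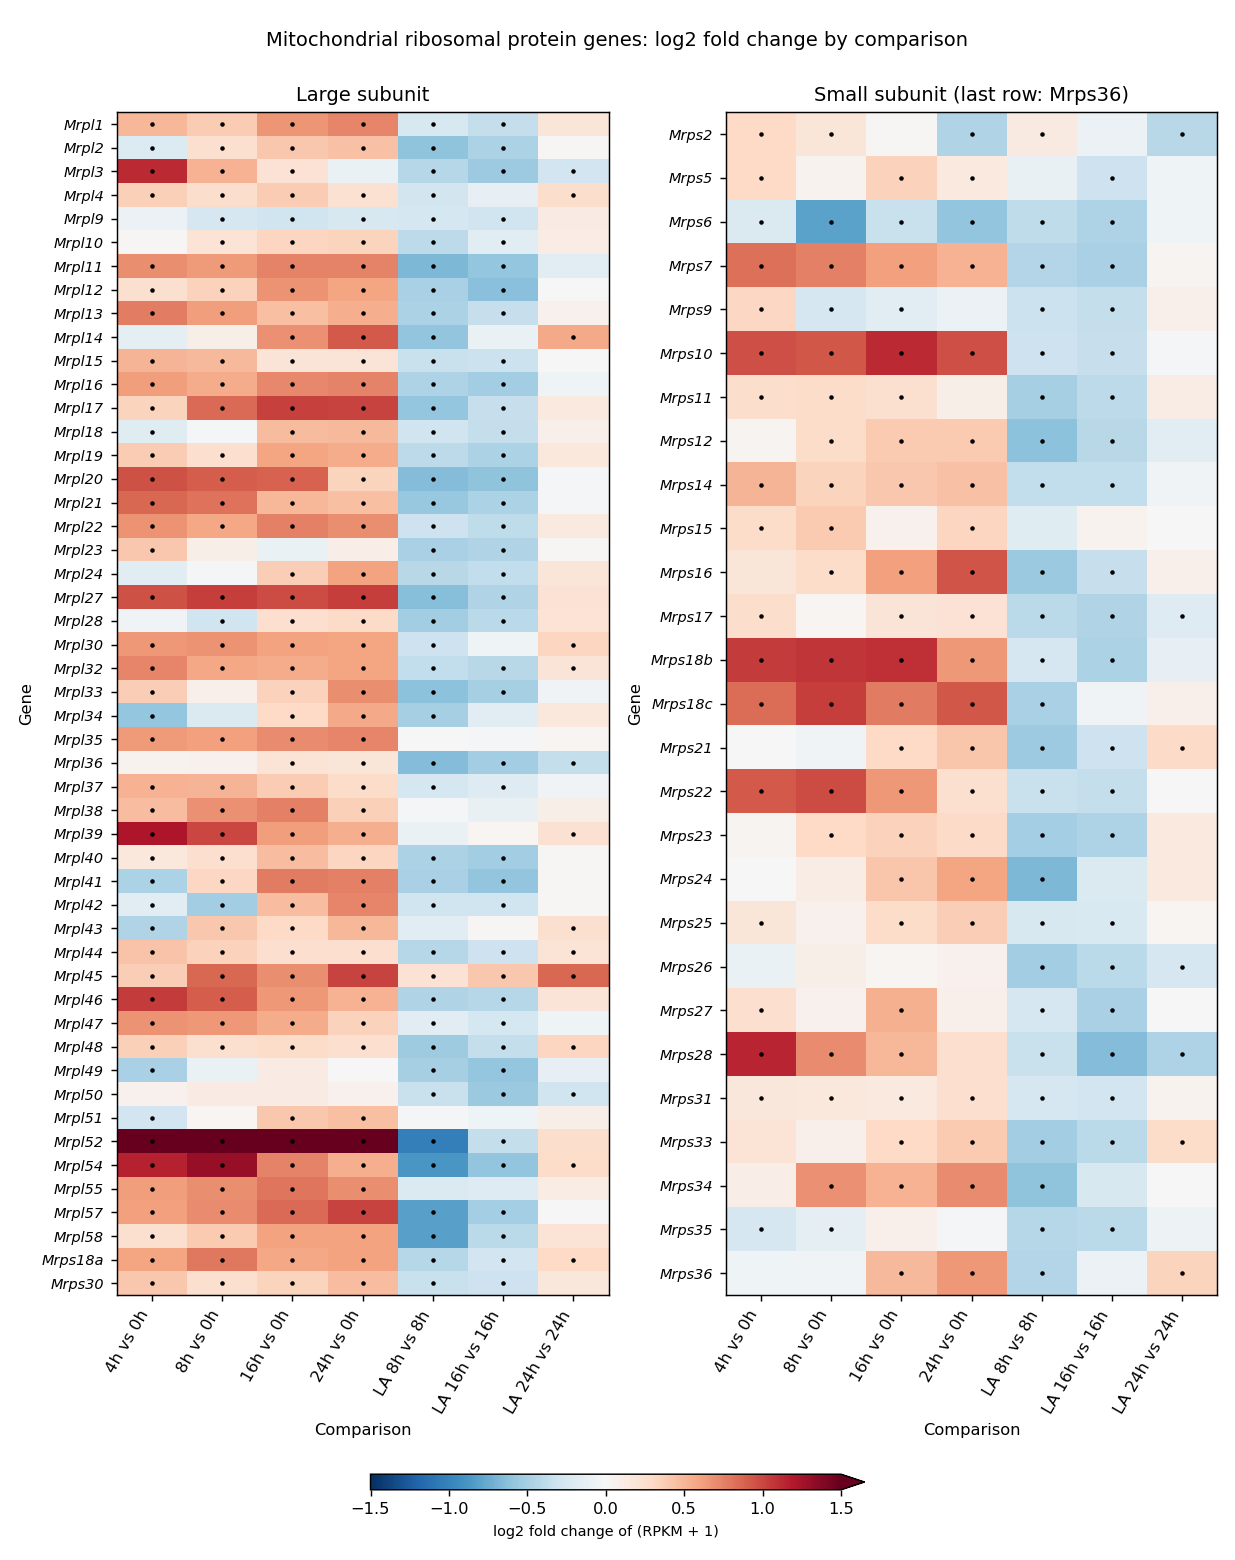
Log2 fold change of RPKM + 1 (colour, limited to 1.5) of the 77 members (rows, by subunit) in 7 comparisons (columns), with a dot where limma called the gene. Columns against 0h are mostly red and those of lactic acid at 8h and 16h mostly blue. With the listed-read scaling, the median at 4h and 8h against 0h turns negative, at -0.13 and -0.15, among all tested genes at -0.44 and -0.41.

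At 8h, 52 members were higher and 6 lower than at 0h (all genes 40.7% and 42.1%), with a median of 0.31. With the listed-read scaling these were 25 higher and 39 lower, at a median of -0.15 among all genes at -0.41. With the length trend removed they were 44 and 10. From 4h to 8h the members did not move as a whole: 16 were higher and 14 lower (all genes 34.8% and 36.9%), with a median of -0.01. With the listed-read scaling 25 were higher and 12 lower, at a median of 0.03 among all genes at 0.02. Members that had fallen at 4h were among the largest rises, Mrpl43 by 0.86 (SE 0.09) and Mrpl41 by 0.78 (SE 0.10), next to Mrpl52 with 0.59 (SE 0.14). Mrpl43 went from 23.3, 22.0, 23.5 and 24.0 RPKM at 4h to 43.9, 38.8, 43.4 and 45.4 RPKM at 8h, above its 0h values of 30.5 to 33.6 RPKM. The largest falls were those of Mrpl3 (-0.60, SE 0.07), Mrps6 (-0.58, SE 0.09) and Mrps9 (-0.56, SE 0.06). Without 4h replicate 4 the number lower was 9.

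At 16h, 67 members were higher and 3 lower than at 0h (all genes 39.9% and 36.9%), with a median of 0.47. Under the listed-read scaling 34 were higher and 14 lower, at a median of 0.09 among all genes at -0.31. The largest rises were those of Mrpl52 (3.02, SE 0.14), Mrps10 (1.12, SE 0.07) and Mrps18b (1.10, SE 0.07). Mrps10, the homologue of bacterial S10, was at 1.88, 1.84, 1.61 and 1.70 RPKM at 0h and at 4.93, 5.77, 5.07 and 4.24 RPKM at 16h. The 3 lower members were Mrps6 (-0.33, SE 0.09), Mrpl9 (-0.30, SE 0.08) and Mrps9 (-0.17, SE 0.06), and the call of Mrps9 was lost without 16h replicate 4 (limma adjusted p = 0.064).

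At 24h, 64 members were higher and 3 lower than at 0h (all genes 39.9% and 37.3%), with a median of 0.46. On the listed-read scale 27 were higher and 26 lower, at a median of 0.01 among all genes at -0.38, so that the members stood above the median of all genes by 0.39 in place of 0.44. With the length trend removed 49 were higher and 6 lower, at a median of 0.28. Macrophage markers summed to 36140 to 48400 RPKM at 24h, above the 0h range, and their part in the result was not tested. The large subunit had 45 of 50 members higher and 1 lower (median 0.54), and the small subunit 18 of 26 higher and 2 lower (median 0.31). Scaled to listed reads, these medians were 0.08 and -0.14, and the difference between the subunits was not tested. Of the 44 members with a bacterial homologue 37 were higher, and of the 29 classed as mitochondria-specific 24 were higher. Over all 4 times, 39 members were higher than at 0h at each, in comparisons that share the 0h libraries. The same count over all genes was not made.

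The largest rises at 24h were those of Mrpl52 (2.78, SE 0.14), Mrpl27 (1.04, SE 0.10), Mrpl17 (1.01, SE 0.10), Mrpl45 (1.01, SE 0.06), Mrpl57 (1.01, SE 0.12), Mrps10 (0.96, SE 0.07), Mrps16 (0.95, SE 0.11) and Mrps18c (0.93, SE 0.11). Mrpl27, the homologue of a bacterial protein that reaches into the peptidyl transferase centre, went from 30.1, 28.2, 28.5 and 27.1 RPKM to 57.1, 56.8, 51.0 and 76.2 RPKM. Mrps16 went from 49.1, 45.9, 44.0 and 44.6 RPKM to 84.0, 81.9, 73.8 and 125 RPKM. In both the groups were apart, and the highest value was that of 24h replicate 4, the library with the high median. Without it the median over members at 24h was 0.36, with 61 higher and 4 lower.

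The 3 members lower at 24h were Mrps6, Mrps2 and Mrpl9. Mrps6, the homologue of bacterial S6, went from 12.6, 10.6, 10.1 and 11.5 RPKM at 0h to 6.81, 7.53, 5.95 and 8.24 RPKM (-0.59, SE 0.09). Mrps2, the homologue of bacterial S2, went from 7.83, 6.99, 7.25 and 7.66 RPKM to 4.85, 5.74, 5.17 and 4.84 RPKM (-0.46, SE 0.05). Both were apart from their 0h values, while the fall of Mrpl9 (-0.24, SE 0.08) came with overlapping groups, its 24h values being 10.9, 10.4, 9.68 and 14.7 RPKM against 12.9 to 14.1 RPKM, and its call was lost in a fit of the 0h and 24h libraries alone (limma adjusted p = 0.072). Mrps6 was lower than at 0h at all 4 times.

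Single members followed different courses between 4h and 24h. From 4h to 24h 30 members were higher and 21 lower (all genes 42.3% and 41.3%), with a median of 0.07, and the median was -0.04 without 24h replicate 4 and -0.06 with the length trend removed. Of the members lower at 4h, 7 were higher than 0h at 24h: Mrpl2, Mrpl18, Mrpl34, Mrpl41, Mrpl42, Mrpl43 and Mrpl51. Mrpl41 reached 26.4, 28.8, 23.6 and 35.8 RPKM and Mrpl34 52.8, 45.7, 42.4 and 69.8 RPKM at 24h, rises over 4h of 1.23 (SE 0.10) and 1.15 (SE 0.11). Mrpl14, which had not been called at 4h, rose by 1.07 (SE 0.12) in the same comparison.

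The opposite course, higher at 4h and not higher at 24h, was that of 7 members: Mrpl3, Mrpl23, Mrps2, Mrps9, Mrps11, Mrps27 and Mrps28. Mrpl3 was back at 6.34, 6.25, 4.90 and 5.37 RPKM at 24h, overlapping its 0h values, a fall from 4h of 1.22 on the log2 scale (SE 0.07). Mrps28 fell by 0.89 (SE 0.12) and Mrps2 by 0.76 (SE 0.05) from 4h to 24h. The courses of these members, with and without lactic acid, are in the plot of levels per library.

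Most members were lower with lactic acid at 8h. Against 8h without it, 67 members were lower and 2 higher (all genes 36.0% and 32.1%), with a median of -0.42 among all genes at -0.02. In 69 members all 4 values with lactic acid lay below all 4 without, against 36.9% of tested genes. The median level of the members per library was 3.54 to 3.60 in LA 8h and 3.84 to 4.01 in 8h. That of the 0h libraries, 3.51 to 3.69, overlapped the LA 8h range with the authors' scaling. As a share of reads in listed genes, the members were lower in LA 8h (0.196% to 0.209%) than at 0h (0.246% to 0.268%), without overlap. Against 8h, the listed-read scaling gave 65 lower and 2 higher, with a median of -0.34 among all genes at 0.04. The summed level of the macrophage markers was also lower, 10542 to 11153 RPKM in LA 8h and 13831 to 15892 RPKM in 8h, as was that of the neutrophil markers, 38.5 to 50.5 RPKM and 56.0 to 70.1 RPKM, and their part in the result was not tested.

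The fall at 8h took in 43 of 50 large-subunit members (median -0.43) and 23 of 26 small-subunit members (median -0.39). Mrpl52 had 60.4, 59.7, 60.1 and 56.1 RPKM in LA 8h against 125, 108, 126 and 129 RPKM in 8h, a difference of -1.03 on the log2 scale (SE 0.14, limma adjusted p = 2.6e-07). Mrpl54, also mitochondria-specific, had 43.8, 46.8, 45.8 and 44.6 RPKM against 87.7, 74.7, 83.9 and 88.1 RPKM (-0.87, SE 0.11). In each the groups were well apart, with the LA 8h libraries within a narrow range.

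Mrpl58 had 3.78, 4.21, 3.94 and 3.48 RPKM in LA 8h against 8.28, 6.57, 7.37 and 7.82 RPKM in 8h (-0.81, SE 0.11), which is below its 0h values of 5.03 to 5.80 RPKM. Mrpl57 fell by the same amount (-0.81, SE 0.12), from 12.6, 9.90, 10.9 and 11.7 RPKM to 6.05, 6.05, 5.90 and 5.87 RPKM. Mrpl12 (-0.49, SE 0.10), Mrps18c (-0.49, SE 0.11), Mrps36 (-0.44, SE 0.10), Mrps18a (-0.43, SE 0.08), Mrps30 (-0.34, SE 0.08) and Mrps18b (-0.25, SE 0.07) fell as well. The 8 members not called were Mrpl35, Mrpl38, Mrpl39, Mrpl43, Mrpl51, Mrpl55, Mrps5 and Mrps15.

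Gene length moved with this fall. Among the other tested genes, those under 1500 bases had a median of -0.40 under lactic acid at 8h, those of 1500 to 3000 bases -0.18 and those of 3000 bases or more 0.09. The members in the same 3 classes (27, 26 and 24 genes) had medians of -0.49, -0.42 and -0.35. With the trend of each library with length removed, the median of the members was -0.23, with 51 lower and 5 higher, and the calls of Mrps18b, Mrps18c, Mrps30 and Mrps36 were lost (limma adjusted p = 0.38, 0.17, 0.30 and 0.12). At 4h against 0h the order was another one: the members of the 3 classes had medians of 0.05, 0.29 and 0.44, and the other genes 0.26, 0.04 and -0.05. At 24h against 0h the members had 0.57, 0.34 and 0.40 and the other genes 0.44, 0.16 and -0.09. The part of length in these results was not tested.

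At 16h, 60 members were lower with lactic acid and 1 higher (all genes 31.0% and 30.2%), with a median of -0.36. Of the 60, 59 had also been lower at 8h, as had 67 of all 77 members. The joint count over all genes was not made. In 52 the groups were apart, against 28.5% of tested genes. The largest falls were those of Mrps28 (-0.65, SE 0.12), Mrpl12 (-0.63, SE 0.10) and Mrpl20 (-0.61, SE 0.09). Mrpl12 had 16.6, 19.2, 18.7 and 20.3 RPKM against 28.1, 35.0, 31.7 and 24.0 RPKM, with every value below every value without lactic acid. Mrpl52, with 56.5, 62.5, 69.7 and 62.4 RPKM against 85.0, 95.6, 81.7 and 63.9 RPKM, differed less than at 8h (-0.36, SE 0.14), and its groups overlapped. With the length trend removed 53 were lower and 6 higher, with a median of -0.27. Macrophage markers summed to 17077 to 21301 RPKM in LA 16h and 22669 to 33124 RPKM in 16h, and neutrophil markers to 18.4 to 25.01 RPKM and 29.4 to 52.4 RPKM. Both were lower with lactic acid without overlap, and their part in the result was not tested.

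At 24h the members no longer differed in one direction. With lactic acid 14 were higher and 7 lower (all genes 25.5% and 21.7%), with a median of 0.07, while 56 were not called. The count rests on single libraries: 35 were higher without 24h replicate 4, 8 without 24h replicate 3, 8 without LA 24h replicate 1 and 9 without 24h replicate 1. Without 24h replicate 4 and LA 24h replicate 1 together, 21 were higher and 8 lower, at a median of 0.08. Under the listed-read scaling 2 were higher and 35 lower, at a median of -0.13 among all genes at -0.15. With the length trend removed 11 were higher and 14 lower, at a median of -0.00, and in a fit of these 8 libraries alone 3 were higher and 3 lower.

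Mrpl45 was the clearest difference at 24h. This mitochondria-specific protein sits at the exit of the peptide tunnel and takes part in holding the ribosome to the inner membrane. It had 67.0, 55.7, 59.7 and 59.5 RPKM in LA 24h against 31.5, 31.2, 30.4 and 39.1 RPKM in 24h, a rise of 0.86 on the log2 scale (SE 0.06, limma adjusted p = 1e-11). It was also higher at 8h (0.21, SE 0.06), with 35.5, 34.3, 37.5 and 30.8 RPKM against 27.5, 30.2, 30.4 and 30.4 RPKM, and at 16h (0.40, SE 0.06), with 34.0, 34.1, 36.0 and 36.5 RPKM against 26.5, 27.3, 26.2 and 25.5 RPKM. At each of the 3 times every value with lactic acid lay above every value without it, and it was the only member called higher at all 3.

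Mrps2 crossed over. With lactic acid it had 9.38, 9.86, 9.61 and 9.22 RPKM at 8h against 8.35, 8.74, 8.61 and 8.59 RPKM, higher by 0.14 (SE 0.05), a call lost without 8h replicate 1 or LA 8h replicate 2 (limma adjusted p = 0.060 and 0.069). At 24h it had 3.77, 3.61, 3.78 and 3.26 RPKM against 4.85, 5.74, 5.17 and 4.84 RPKM, lower by more than the spread within either group (-0.42, SE 0.05). Its groups were apart at both times.

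Mrpl14 had 111, 75.5, 77.7 and 71.8 RPKM against 51.8, 52.1, 45.8 and 76.9 RPKM (0.57, SE 0.12), with an overlap made by 24h replicate 4. Mrpl48 rose by 0.33 (SE 0.08) with groups apart, and Mrps36 (0.34, SE 0.10), Mrpl30 (0.32, SE 0.08), Mrps18a (0.30, SE 0.08), Mrps21 (0.28, SE 0.11) and Mrpl54 (0.27, SE 0.11) with overlapping groups. Without LA 24h replicate 1 the calls of Mrps36, Mrps21 and Mrpl54 were lost (limma adjusted p = 0.079, 0.16 and 0.26). In the fit of the 24h and LA 24h libraries alone those of Mrps36, Mrpl30, Mrps18a, Mrps21 and Mrpl54 were lost, as were those of Mrps28, Mrpl3, Mrps26 and Mrps17 among the falls below.

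The 7 lower members at 24h were Mrps28 (-0.46, SE 0.12), Mrps2, Mrpl36 (-0.35, SE 0.07), Mrpl50 (-0.30, SE 0.07), Mrpl3 (-0.29, SE 0.07), Mrps26 (-0.26, SE 0.08) and Mrps17 (-0.20, SE 0.07). All but Mrps2 had been lower at 8h and 16h too, so that 6 members were lower with lactic acid at each of the 3 times. How many of all genes were so was not counted. Mrpl50 had 8.70, 8.85, 7.06 and 7.69 RPKM against 9.80, 11.1, 8.89 and 11.0 RPKM, the only one besides Mrps2 whose groups did not overlap. Leaving out 24h replicate 4 also took the calls of Mrps26 and Mrps17 (limma adjusted p = 0.094 and 0.073).

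Whether lactic acid acted differently at 24h and at 8h was tested as an interaction. It was called positive in 63 members and negative in 1 (all genes 32.7% and 29.7%), with a median of 0.49. Called or not, its value was above 0 in 75 of the 77 members (all genes 52.1%). Of the 63, 60 had been lower at 8h, as had 67 of all 77 members. The 8h and LA 8h libraries enter both calls, and a low value at 8h itself raises the interaction. The overlap is therefore no separate result. The largest differences were those of Mrpl52 (1.29, SE 0.20), Mrpl14 (1.16, SE 0.18) and Mrpl54 (1.14, SE 0.15), and the one called negative was that of Mrps2 (-0.55, SE 0.07). On the listed-read scale 37 were called positive and 5 negative with a median of 0.20, among all genes at -0.20. With the length trend removed 45 were called positive and 5 negative, with a median of 0.25.

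**Figure D2:**
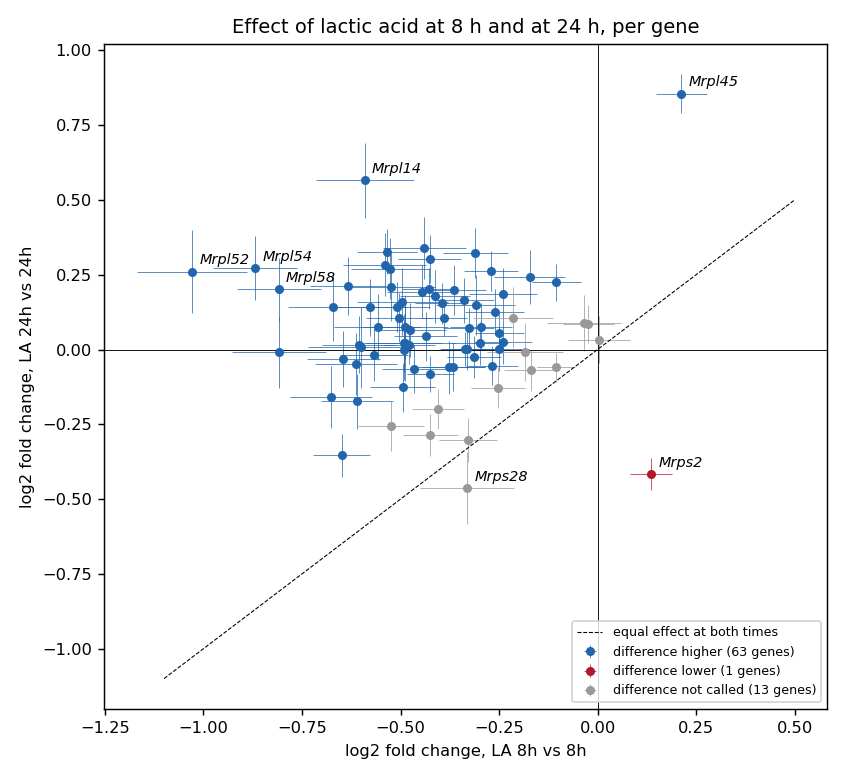
Log2 fold change of RPKM + 1 under lactic acid at 8h (horizontal axis) and at 24h (vertical axis) for each of the 77 members, with SE as bars and colour for the test of the difference. Most points lie left of 0 and above the line of equal effects; Mrpl45 lies at 0.21 and 0.86 and Mrps2 at 0.14 and -0.42. With the listed-read scaling the median at 24h is -0.13, among all tested genes at -0.15.

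**Figure D3:**
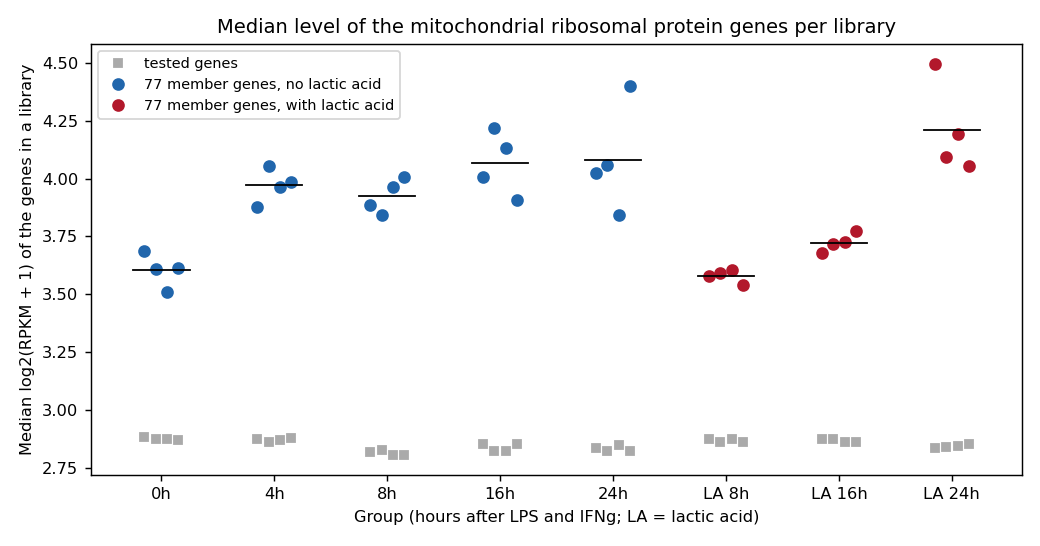
Median log2(RPKM + 1) of the 77 members (circles) and of the 9942 tested genes (grey squares) in each library, by group, with the mean of the 4 libraries as a line. LA 8h libraries lie at 3.54 to 3.60, within the range of 0h with the authors' scaling. As a share of reads in listed genes, the members are lower in LA 8h than at 0h. The libraries 24h replicate 4 and LA 24h replicate 1 lie above the rest of their groups at 4.40 and 4.50.

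The 5 ribosomal proteins with other symbols, Dap3, Gadd45gip1, Chchd1, Aurkaip1 and Ptcd3, were all higher at 4h and all lower under lactic acid at 8h. The shares of all genes were 42.5% and 36.0%. Scaled to listed reads, 1 was higher and 2 lower at 4h, and all 5 were still lower under lactic acid. At 24h 4 were higher, Chchd1 by 1.42 (SE 0.12) and Gadd45gip1 by 0.73 (SE 0.12), while Ptcd3, a small-subunit protein with pentatricopeptide repeats, was lower by 0.38 on the log2 scale (SE 0.07). Ptcd3 had been higher at 4h by 0.55 (SE 0.07).

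The factors that build the ribosome were split in direction at 4h and 24h, as were all tested genes. Of 29 tested genes of ribosome assembly and rRNA processing 9 were higher and 10 lower at 4h (all genes 42.5% and 42.7%). At 24h 11 were higher and 9 lower (all genes 39.9% and 37.3%). The listed-read scaling gave 5 and 20, and 4 and 20, with all genes at medians of -0.44 and -0.38. Rpusd3 and Ybey were listed and not tested. Slirp, an RNA-binding partner of Lrpprc, rose by 0.98 (SE 0.11) and Eral1, a GTPase that binds the rRNA of the small subunit, by 0.85 (SE 0.05) at 4h. Rbfa, a maturation factor of the small subunit, went from 41.3 to 15.9 RPKM on average (-1.33, SE 0.08), and Mrm1, an rRNA methyltransferase, from 2.83 to 0.916 RPKM. At 24h Malsu1 (1.07, SE 0.11) and Mpv17l2 (0.86, SE 0.12), both of large-subunit assembly, were among the rises, and Mettl17 (-0.79, SE 0.06) and Lrpprc (-0.78, SE 0.05) among the falls. Under lactic acid at 8h 20 of the 29 were lower and 2 higher (all genes 36.0% and 32.1%).

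Of 14 translation factors 1 was higher and 5 lower at 4h (1 and 13 with the listed-read scaling), and 7 were higher and 1 lower at 24h (1 and 10). Gfm1, the elongation factor that moves the ribosome along, rose by 0.66 (SE 0.05), and Oxa1l, the insertase that takes up the new proteins, had a log2 fold change of -0.86 (SE 0.07). Of 7 tested genes of mitochondrial transcription and DNA replication 2 were higher and 4 lower at 4h (1 and 6 with the other scaling), and 1 higher and 5 lower at 24h (1 and 6). Tefm, an elongation factor, rose by 1.03 (SE 0.08), while Polrmt, the RNA polymerase itself, went from 3.45 to 1.60 RPKM (-0.78, SE 0.07) and Peo1, the helicase Twinkle, from 2.16 to 0.512 RPKM (-1.06, SE 0.05). Among 8 tested regulators of nuclear mitochondrial genes, 4h gave 6 higher and 1 lower (3 and 5 with the other scaling) and 24h gave 6 and 2 (1 and 5). At 4h the values were led by Myc, up by 2.46 (SE 0.09), and Esrra, by 1.30 (SE 0.07), while Yy1 had -0.28 (SE 0.06). Mterf1a, Ppargc1b and Nrip1 were listed and not tested.

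Other large sets of nuclear genes for mitochondria and ribosomes give a measure of comparison. Of 79 nuclear genes of respiratory chain subunits 60 were higher and 6 lower at 4h (median 0.43, and -0.07 with the listed-read scaling), and 70 were lower and 1 higher under lactic acid at 8h (median -0.41, and -0.32). Of 77 cytosolic ribosomal protein genes 70 were higher and 0 lower at 4h (median 0.47, and -0.06 with that scaling), and 75 were lower under lactic acid at 8h (median -0.46, and -0.37). At 16h only 17 of the cytosolic set were higher than at 0h and 7 lower, with a median of 0.06, beside 67 and 3 of the mitochondrial set with a median of 0.47, and with the listed-read scaling the medians were -0.33 and 0.09. At 24h 67 of 77 cytosolic genes were higher with lactic acid (median 0.40, and 0.19 with that scaling), beside 14 of 77 mitochondrial ones and 25.5% of all genes. The differences between the sets were not tested.

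**Figure D4:**
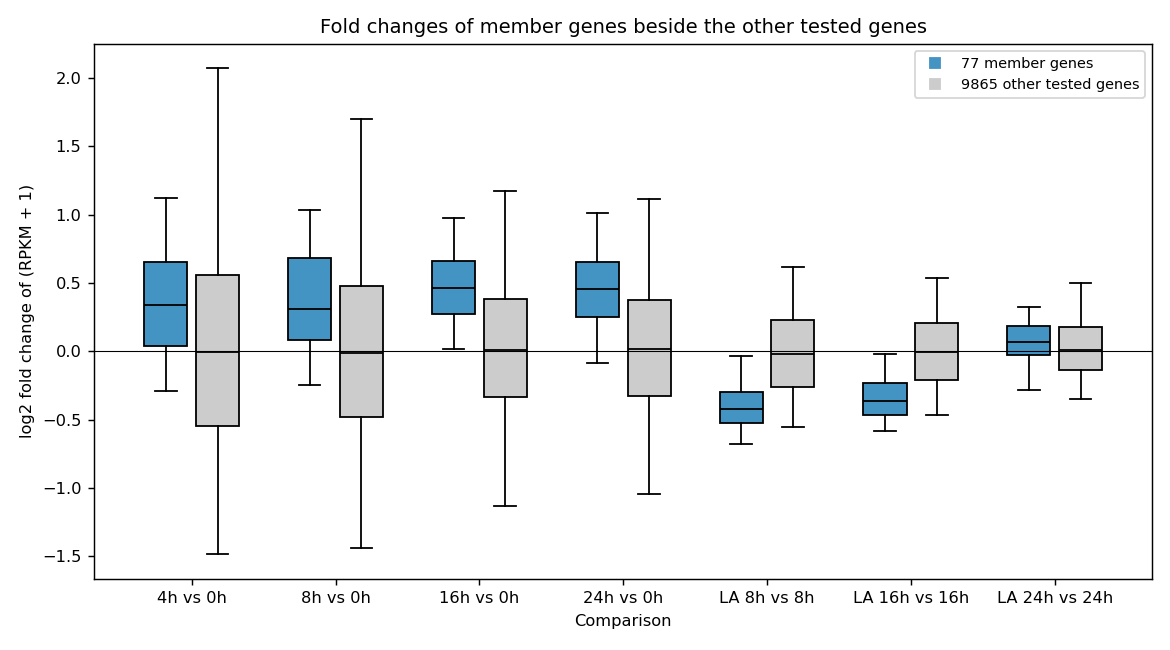
Log2 fold change of RPKM + 1 (vertical axis) of the 77 members (blue) and the 9865 other tested genes (grey) in 7 comparisons; boxes span the quartiles with the median as a line, and whiskers the 5th to 95th percentiles. Member medians lie at 0.34 to 0.47 for 4h, 16h and 24h against 0h and at -0.42 and -0.36 for lactic acid at 8h and 16h. The listed-read scaling moves the medians against 0h to between -0.15 and 0.09, and those of all tested genes to between -0.44 and -0.31.

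Of the 77 members, 24 overlap another annotated gene and 12 overlap one that was tested, in 13 pairs. Member and neighbour had log2 fold changes of the same sign in 5 of the 13 pairs at 4h, 6 at 24h, 4 under lactic acid at 8h and 9 under it at 24h. Mrpl14 overlaps Tmem63b on the opposite strand, which had 0.48 under lactic acid at 8h where Mrpl14 had -0.59, and 0.42 at 24h against 0h where Mrpl14 had 0.92. Mrpl57 overlaps Ska3 on the opposite strand, with -1.80 at 24h where Mrpl57 had 1.01. Mrps7 and the overlapping Mif4gd had the same sign at 4h (0.82 and 0.70) and under lactic acid at 8h (-0.44 and -0.58). The library kit marks the strand, per the labels, while the strand setting of the counting is not given in the sources used here.

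Histone H3 lysine 18 lactylation (H3K18la) and acetylation (H3K18ac), marks found at active promoters, were measured in 1 library per mark and state, so that peak counts have no test. A member counted as marked where a deposited peak touched 1000 bases on either side of any of its start sites, which RefSeq gave for 68 members. Mrpl48 has 4 such sites, and its strongest M0 H3K18la peak, from 100582643 to 100583470, lies away from its start at 100608301. The starts of Mrpl46 and Mrps11 lie 42 bases apart, and both members were counted from the same peak in each of the 4 lists. All 68 had an H3K18la peak in M0 cells (92.8% of 7823 tested genes) and 55 had one in M1 cells (80.9%, against 76.7% of tested genes). H3K18ac peaks lay at 68 members in M0 cells (94.8% of tested genes) and 67 in M1 cells (92.6%). As all 68 had peaks of both marks in M0 cells, no member could gain a peak in M1 cells. Of tested genes, 1.11% had an H3K18la peak in M1 cells alone and 1.38% an H3K18ac peak.

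The 13 members with an H3K18la peak in M0 cells alone were Mrpl24, Mrpl28, Mrpl34, Mrpl35, Mrpl42, Mrpl45, Mrpl55, Mrps6, Mrps17, Mrps22, Mrps25, Mrps33 and Mrps36, which is 19.1% of the 68, against 17.2% of tested genes. The M1 list is the shorter, with 16139 peaks against 21885. At a -log10 q of at least 5, 33 members had an M1 peak, which is 48.5%, against 55.0% of tested genes, so that the members were then below the share of tested genes and not above it. Mrps22 was the one without an H3K18ac peak in M1 cells.

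The median log2 fold change at 24h was 0.46 for the 55 with an H3K18la peak in M1 cells and 0.57 for the 13 without. Of these, 45 and 12 were called higher, a description with no test. Both Mrpl45, which was higher at 24h, and Mrps6, which was lower, were without that peak. Both had H3K18la peaks in M0 cells and H3K18ac peaks in both states. Mrps18b had the highest fold enrichment of any member, as the authors gave it, in each of the 4 lists, 20.3 and 15.0 for H3K18la and 8.60 and 9.88 for H3K18ac in M0 and M1 cells. Ppp1r10 lies 72 bases from Mrps18b on the opposite strand. The M0 H3K18la peak runs from 35915583 to 35919649, past the Mrps18b start at 35916440. The enrichment thus cannot be assigned to Mrps18b alone. The promoter of Mrpl52 printed above carried peaks of both marks in both states, with an H3K18la enrichment of 10.5 in the M0 list, where the member median was 6.32, and 4.00 in the M1 list, where it was 4.36.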

How the data were processed

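RNA was sequenced in 32 libraries and H3K18la, H3K18ac and input ChIP in 6. The RNA table was deposited as RPKM, scaled by the authors to an effective size of each library, beside the authors' log2 fold changes, p-values and FDR, which were not used for any result. Per the submitters' processing notes, HISAT2 2.1.0, featureCounts 1.5.0-p1, edgeR, Bowtie2 2.2.6, SAMtools 0.1.19 and MACS2 2.2.1 were among the tools, with builds mm10 and GRCm38. The deposited peak lists give for each peak a fold enrichment (a ratio), -log10 p and q values and a score. Their threshold and control are not given in the sources used here.

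The test was limma-trend (limma 3.58.1, R 4.3.3) on log2 of RPKM plus 1 for genes that reached 1 RPKM in 4 or more libraries, in a single model of group means over the 32 libraries with 10 contrasts and Benjamini-Hochberg adjustment over 9942 genes. The fold changes understate those of low genes. The script was tested on simulated data. Whole reads could be recovered from RPKM and gene length (100% of values within 0.05 of a whole number), and voom on these reads was added after the data were seen. The planned count test on them was not run. Other alternatives were the listed-read scaling, another pseudocount, other filters, a fit of each pair of groups alone, removal of a length trend, the replicate block and leaving out each library.

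The members and the partner lists were chosen with earlier results of these data known. Named members were Mrpl12, Mrps18a, Mrps18b, Mrps18c, Mrpl58, Mrps30 and Mrps36 in every comparison, up to 8 called members with the largest rise and up to 8 with the largest fall at 4h and 24h against 0h and under lactic acid at 24h, and 3 of each elsewhere. Of the partner lists, up to 2 of each at 4h and 24h were named. Members singled out by their course (lower at 4h and higher at 24h, higher at 4h alone, not called, without an M1 H3K18la peak) and the neighbouring genes were chosen after their values were seen. Counts of members called in several comparisons have no matching count over all genes. Start sites and promoters came from RefSeq tables of GRCm38.p6, matched by symbol, and 9 members had none there. Figures were drawn with matplotlib 3.10.9 in Python 3.11.15.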

Additional observations from a re-analysis of the deposited data

Results flagged for a closer look

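For the 39 named members and the median over members, each of the 8 groups of 4 was searched for a library far from the other 3, where the gap to the nearest library, as a share of the range of the group, exceeded Dixon's critical value for 4 values. This held in 11 of 320 groups, while chance alone gives about 1 in 20. All 11 were of single members, and the median over members was flagged in no group. In 24h replicate 4 these were Mrpl45 with 39.1 RPKM against 30.4 to 31.5 (gap 0.882 of the range) and Mrpl51 with 21.2 against 13.5 to 14.7 (0.852). In LA 24h replicate 1 they were Mrpl14 with 111 RPKM against 71.8 to 77.7 (0.848) and Mrpl54 with 79.0 against 52.6 to 56.9 (0.837). In LA 16h replicate 4 they were Mrpl41 with 20.5 RPKM against 18.2 to 18.4 (0.915) and Mrps16 with 60.1 against 54.0 to 54.9 (0.850). In 4h replicate 1 they were Mrps26 with 4.39 RPKM against 3.75 to 3.82 (0.902) and Mrps6 with 8.28 against 9.77 to 9.99 (0.873). Mrpl45 had 27.5 RPKM in 8h replicate 1 against 30.2 to 30.4 (0.929), Mrps17 5.77 in 8h replicate 4 against 5.18 to 5.27 (0.840), and Mrpl52 56.1 in LA 8h replicate 4 against 59.7 to 60.4 (0.833).

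Of the 39 members, 32 differed in the log2 fold change under lactic acid between 24h and 8h, by the interaction in limma. Of these, 31 were positive and 1 negative, beside 63 and 1 called among all 77 members and 32.7% and 29.7% of all genes. The naming rule took 11 of the 39 for this difference, and 10 of the 11 were called. It took Mrpl52, Mrpl14, Mrpl54 and Mrps2 from called members only, so that their calls were set by the rule. The value at 24h minus that at 8h was 1.29 in Mrpl52, 1.16 in Mrpl14, 1.14 in Mrpl54, 1.01 in Mrpl58, 0.78 in Mrps36, 0.73 in Mrps18a, 0.56 in Mrps18c, 0.50 in Mrps30 and 0.49 in Mrpl12 on the log2 scale, all of which were called lower under lactic acid at 8h, and -0.55 in Mrps2. At 24h Mrpl14, Mrpl54, Mrps36 and Mrps18a were called higher under lactic acid and the other 5 were not called. For Mrps18b the difference was 0.13 and was not called.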

How the results depend on the processing

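The 10 comparisons were repeated with a pseudocount of 0.1, without a filter and with voom on recovered reads (added after the data were seen). The counts stayed within 1.5 times of those above. The medians kept their sign and moved by less than 0.128, the spread of the member median between libraries of a group. Other settings moved some counts or medians by more than these limits. Scaling to the reads in listed genes gave 21 higher and 39 lower with a median of -0.13 at 4h against 0h, 25 and 39 with -0.15 at 8h, 34 and 14 with 0.094 at 16h, and 27 and 26 with 0.0086 at 24h. All tested genes then had medians of -0.44, -0.41, -0.31 and -0.38. The same scaling gave 25 higher with a median of 0.034 at 8h against 4h, 2 higher and 35 lower with -0.13 under lactic acid at 24h, and 37 higher and 5 lower with 0.20 for the difference in its effect. There all tested genes had 0.020, -0.15 and -0.20. Median ratios gave 6 lower at 4h. With the length trend removed, 18 were lower at 4h, 10 at 8h and 6 at 24h (median 0.28), and the median was -0.060 at 24h against 4h. Under lactic acid this setting gave 5 higher at 8h (median -0.23), 6 higher at 16h, 14 lower at 24h (median -0.0010), and 5 lower for the difference (median 0.25). With only the groups compared, 3 were higher and 3 lower under lactic acid at 24h. Without 24h replicate 4 and LA 24h replicate 1 together (added after the data were seen), the median at 24h against 4h was -0.039. At a -log10 q of at least 5, 33 members had an M1 H3K18la peak (48.5%, against 55.0% of tested genes). For these changes the cause was not tested.

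Leaving out 1 library at a time gave 6 to 10 lower at 4h, 9 to 14 lower at 8h against 4h with a median of -0.021 to 0.0092, and a median of -0.039 to 0.15 at 24h against 4h. Under lactic acid it gave 1 to 2 higher at 8h, and 8 to 35 higher at 24h with a median of -0.016 to 0.16. At 8h against 4h the median was positive without 4h replicate 1, 8h replicate 1 or 8h replicate 2, and under lactic acid at 24h it was negative without 24h replicate 3 or LA 24h replicate 1.

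Named members changed sign as follows. With scaling to reads in listed genes the values were -0.27 for Mrpl12, -0.21 for Mrpl58 and -0.094 for Mrps30 at 4h against 0h, -0.12, -0.018 and -0.21 for the same genes at 8h, and -0.023 for Mrps30 at 16h. Under lactic acid at 24h they were -0.13 for Mrps18c and -0.036 for Mrps30, and for the difference -0.12 for Mrps18b. With median ratios Mrps36 had 0.0032 at 8h against 0h, Mrps18a -0.016 at 24h against 4h and Mrpl12 0.0013 under lactic acid at 24h. With the length trend removed Mrps18b had -0.039 and Mrps36 -0.016 at 8h against 4h, and Mrps18c -0.12 and Mrps30 -0.083 at 24h against 4h. Under lactic acid it gave 0.18 for Mrps18c and 0.12 for Mrps36 at 16h, -0.046 for Mrps18c at 24h and -0.11 for Mrps18b in the difference. Without 24h replicate 4 and LA 24h replicate 1 together, Mrps18a had -0.083, Mrps18c -0.087 and Mrps30 -0.069 at 24h against 4h. Leaving out 1 library at a time gave -0.083 to 0.085 for Mrps18a, -0.087 to 0.19 for Mrps18c and -0.069 to 0.14 for Mrps30 at 24h against 4h. At 8h it gave -0.10 to 0.0051 for Mrps36 against 0h, and -0.010 to 0.035 for Mrps18b and -0.014 to 0.073 for Mrps36 against 4h. Under lactic acid at 24h it gave -0.097 to 0.066 for Mrpl12 and -0.023 to 0.25 for Mrps18c.

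The labels give no shared litter, batch or day, and same-numbered libraries did not deviate together (r of -0.64 to 0.51, and in 6 of 36 pairs over 9 comparisons a library correlated best with its own number). With the replicate number as a block, 51 members were higher and 9 lower at 4h, 11 were lower at 8h against 4h and 13 were higher under lactic acid at 24h. Among named members this took the call of Mrpl2 at 4h (limma adjusted p = 0.054).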
